A study of Mus musculus with 24 samples.

Results

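The genes described here are 10 targets of the transcription factor p53: Cdkn1a, Ccng1, Mdm2, Bax, Bbc3, Trp53inp1, Phlda3, Eda2r, Sesn2 and Gdf15. They were chosen by name, and every probe carrying one of those names on the array was taken, which gave 14 probes for the 10 genes among 55681 distinct probes for 34844 gene names. Liver RNA of male mice was measured on 24 single-colour expression arrays, with 4 arrays for every combination of 3 inbred strains and 2 diets. The strains were A/J, C3H/HeJ and the wild-derived WSB/EiJ. Mice were 20 weeks old and had been on their diet for 12 weeks, from the age of 8 weeks. The deficient diet held no choline and no folic acid and 0.17% methionine, a composition that deprives the liver of methyl donors. The control diet supplied choline bitartrate (0.3%) and folic acid (2 mg/kg) and had methionine at 0.4%. Both diets were made from defined amino acids and were supplemented with iron, so the control groups carried the iron too. The study asked how far the liver's response to the diet depends on the strain.

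p53 is held at a low level by the ubiquitin ligase that its target Mdm2 encodes, and DNA damage, oncogene activity or nutrient stress releases it. It then binds a paired element in the promoters or first introns of its targets, which stop the cell cycle, repair DNA, adjust metabolism or start apoptosis. In liver these genes respond to hepatocyte injury and during regeneration, when surviving cells divide. Several of them have other regulators as well, among them the integrated stress response factors ATF4 and CHOP for Gdf15 and Sesn2.

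Cdkn1a is the target for which the array separates transcripts, and its promoter sequences are shown because the probe for the upstream promoter's transcript gave a signal mainly in WSB/EiJ livers on the deficient diet. RefSeq (build GRCm38.p6) lists 2 starts of Cdkn1a on the plus strand of chromosome 17, 2790 bases apart. The 250 bases before each start are printed 5′ to 3′, with a match to the p53 consensus site in capitals.
Upstream promoter, chr17:29090729-29090978: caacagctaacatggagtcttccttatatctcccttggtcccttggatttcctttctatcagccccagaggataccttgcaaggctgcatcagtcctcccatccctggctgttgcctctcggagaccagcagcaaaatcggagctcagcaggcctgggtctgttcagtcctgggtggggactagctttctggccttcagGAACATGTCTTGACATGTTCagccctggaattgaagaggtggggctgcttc
Downstream promoter, chr17:29093519-29093768: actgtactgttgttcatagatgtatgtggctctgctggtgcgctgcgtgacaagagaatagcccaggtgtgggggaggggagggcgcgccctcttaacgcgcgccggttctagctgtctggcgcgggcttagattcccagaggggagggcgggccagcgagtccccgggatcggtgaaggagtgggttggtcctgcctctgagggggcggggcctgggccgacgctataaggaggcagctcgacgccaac
The match lies at positions 29090928 to 29090947 of that build, 31 bases before the upstream start and 2821 bases before the downstream one. The search used the p53 consensus site, 2 adjoining decamers that read alike on both strands, with the C and G of each core kept and at most 1 other base off. In the same 250 bases 19 of 32851 mouse promoters held such a match (0.0578%). Promoters were listed for 9 of the 10 genes, 13 in all, and a match was found in 2: the upstream Cdkn1a promoter and the promoter of Ccng1. The Ccng1 match stands 175 bases before its start on the minus strand and is printed with 10 bases on each side.
Ccng1, chr11:40755452-40755491: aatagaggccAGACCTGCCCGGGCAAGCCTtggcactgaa
A match is a description of letters only. The absence of one in the other 11 windows says nothing on p53 there, and the search was set up after the Cdkn1a promoter had been seen.

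The 3 Cdkn1a probes are 60 bases long, and the first 30 bases of each are given because they report different transcripts.
Shared 3′ probe: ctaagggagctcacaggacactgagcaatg
Second probe: tggggtagtttccatagtgacccgggtcct
Variant 2 probe: aatggagacagagaccccagataattaagg
The shared 3′ probe starts at base 1619 of its RefSeq transcript, was printed on 10 spots and lies near the end of the gene (mm9 chromosome 17, 29237377 to 29237436). The second probe belongs to an Ensembl transcript (29235299 to 29235358). The variant 2 probe starts at base 55 of the transcript from the upstream promoter (29227986 to 29228045).

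Values are processed signals scaled so that each array had the same 75th percentile, with group means taken on the log2 scale, and signals of different probes cannot be set against each other as levels. Of the 14 probes, 11 passed the background flag on every array of 1 group or more and were tested. The 3 others were both Eda2r probes and the variant 2 probe of Cdkn1a, so 9 of the 10 genes had a tested probe, and a gene was counted by its brightest one. Changes are log2 ratios of the deficient to the control diet, ± the standard error of limma, with p-values adjusted over 28159 probes and held to 0.05. Whether every array stands for its own mouse is not stated in the labels, and the p-values therefore reflect the scatter among these samples, which may be technical.

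A pair of A/J arrays stood apart from the others of their diets. The mean signed deviation on 9665 other probes that changed alike in C3H/HeJ and WSB/EiJ was -0.23, -0.19, -0.34 and -0.03 on A/J control arrays 1 to 4 and 0.33, 0.13, 0.39 and -0.06 on A/J deficient arrays 1 to 4, so the arrays numbered 4 sat between the diets. The pair numbered 4 was singled out from its values, and A/J values of the p53 targets without it are given with the results below. Because the pair was chosen for lying nearest the other diet, leaving it out favours a larger A/J diet effect. Calls and p-values without the pair are therefore descriptions and no separate support for a change in A/J. Among the 11 tested probes without the pair, Bax, Phlda3 and Gdf15 passed in A/J, and Ccng1 was at 0.18 (adjusted p = 0.409), Mdm2 at -0.0016 (adjusted p = 0.994), Sesn2 at -0.04 (adjusted p = 0.871), and Trp53inp1 at -0.22 and 0.13 (adjusted p = 0.616 and 0.742) for its brighter and second probe. Hepatocyte markers were abundant in every group, with a summed signal of 6 genes between 439000 and 1060000.

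On the deficient diet, 2 of the 10 genes rose in A/J (Bax and Gdf15), 6 in C3H/HeJ and 8 in WSB/EiJ, where Sesn2 fell. Without the A/J pair numbered 4, described above, Phlda3 passed as well and the A/J count was 3. The share of all tested probes called without the pair is not given here, so that count has no background. With all arrays, 3.99% of all tested probes rose and 3.32% fell in A/J. In C3H/HeJ 14.2% rose and 25.5% fell, and the 6 genes were Cdkn1a, Ccng1, Bax, Trp53inp1, Phlda3 and Gdf15. In WSB/EiJ 20.2% of all tested probes rose and 49.1% fell, so a single fall among 9 tested genes stood against a background in which falls were more frequent than rises. The median change of the 9 genes was 0.09 in A/J, 0.35 in C3H/HeJ and 0.84 in WSB/EiJ, against -0.06, -0.15 and -0.35 over all tested probes. Control and deficient arrays did not overlap for 1 of the 9 tested genes in A/J, where 15.1% of all tested probes did not, for 5 in C3H/HeJ, against 30.4%, and for 9 in WSB/EiJ, against 64.7%. The A/J share lies near that background. RNA came from whole liver, so fewer cells of a type and less RNA per cell cannot be told apart.

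**Figure D1:**
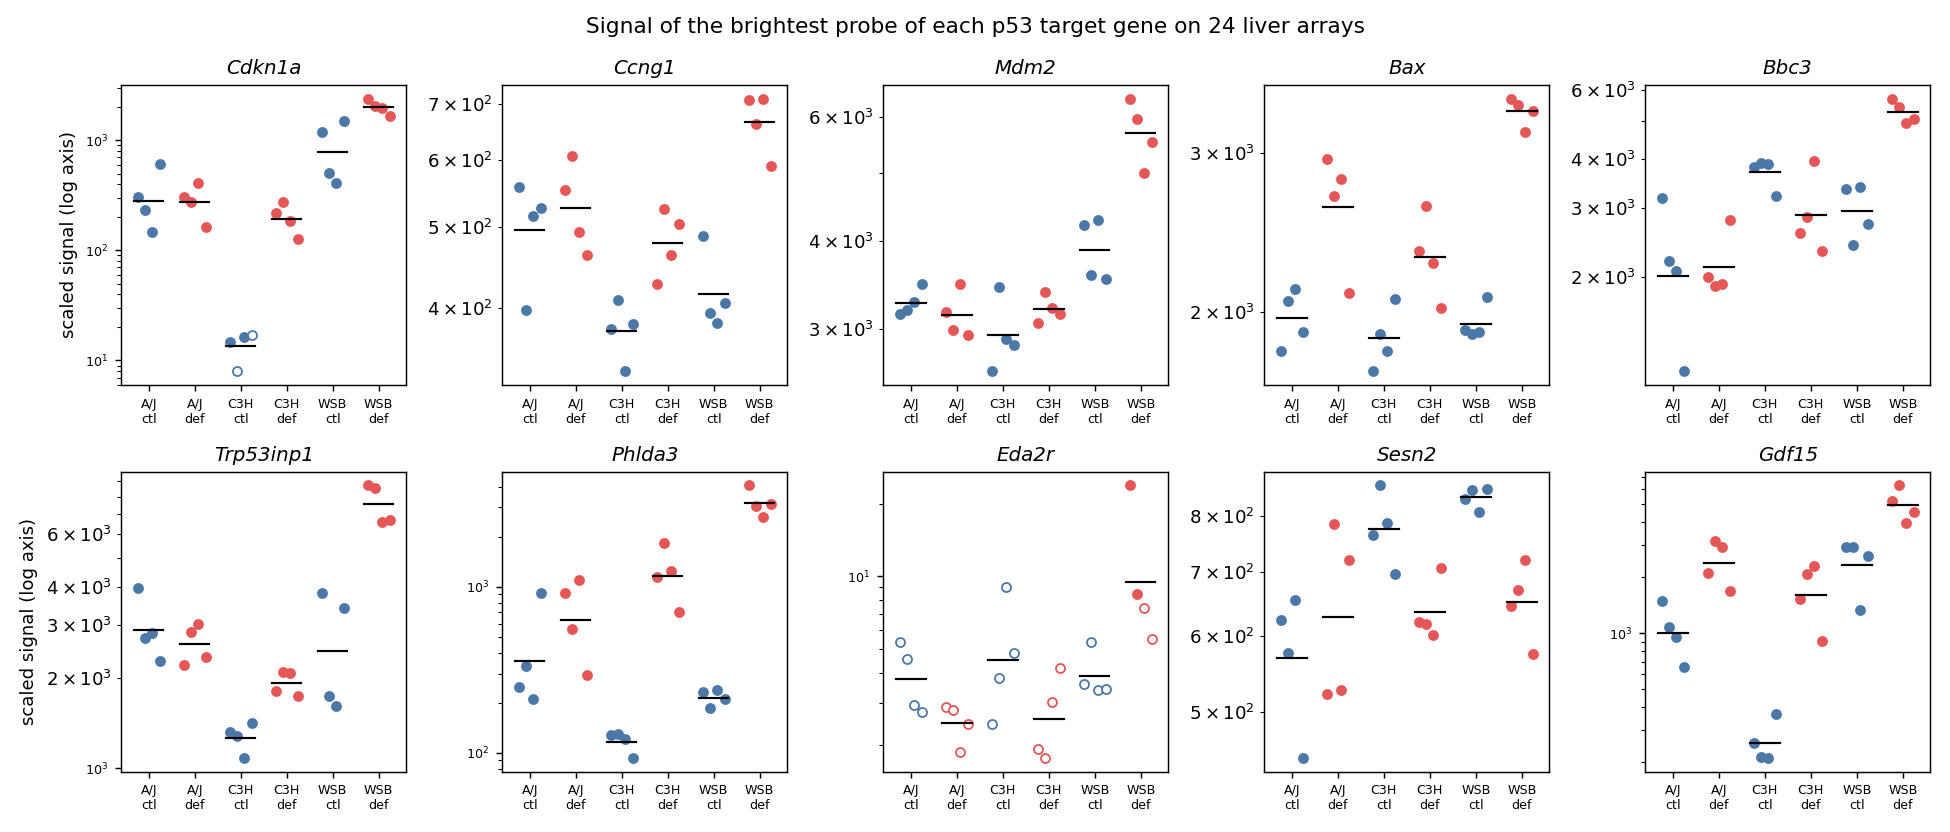
Scaled signal (log axis, arbitrary units, a scale of its own for each gene) of the brightest probe of each gene on every array, in the 6 groups of strain and diet (ctl, control, blue; def, deficient, red). Each point is 1 array, open where it was not well above background, and the bar is the group mean of log2 values; the WSB/EiJ deficient arrays are the highest group for 9 genes, and for Sesn2 the WSB/EiJ control arrays are.

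Cdkn1a encodes p21, the inhibitor of cyclin-dependent kinases through which p53 halts the cell cycle in G1. In C3H/HeJ the shared 3′ probe read 14.6, 7.96, 16.3 and 17.2 on control arrays 1 to 4, only 2 of them well above background, and 219, 274, 185 and 126 on deficient arrays 1 to 4. In WSB/EiJ it read 1190, 503, 412 and 1500 on the control diet and 2400, 2060, 1970 and 1650 on the deficient diet. In A/J it read 308, 232, 148 and 612 on the control diet and 303, 275, 410 and 165 on the deficient diet. The diets were thus apart on every array in C3H/HeJ, close but not overlapping in WSB/EiJ, and fully mixed in A/J. The rise was 14.4-fold in C3H/HeJ (3.85 ± 0.42, adjusted p = 1.7e-06) and 2.57-fold in WSB/EiJ (1.36 ± 0.42, adjusted p = 0.00757), and the change in A/J was -0.05 ± 0.42 (adjusted p = 0.957). Leaving out the A/J pair numbered 4 moved the A/J change to 0.56 (adjusted p = 0.407).

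The size of the C3H/HeJ rise rests on control signals at the edge of background. With normexp background correction and quantile normalization it was 1.81 (adjusted p = 3.1e-04). That correction added an offset of 50 to every signal, which by itself lowers a fold taken from signals this dim. Within the 3 slides, under the percentile scaling, the rise ranged from 3.15 to 5.11. The order of the group means was WSB/EiJ deficient (2000), WSB/EiJ control (781), A/J control (284), A/J deficient (274), C3H/HeJ deficient (193) and C3H/HeJ control (13.4). Only the first and the last of these 6 groups stood clear of their neighbour, and C3H/HeJ livers on the deficient diet thus overlapped A/J livers on either diet.

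The other Cdkn1a probes were dim and rose above background chiefly in WSB/EiJ on the deficient diet. There the second probe read 17.1, 17.9, 21.9 and 15.8, against 6.45, 2.52, 3.06 and 3.20 on the control diet, where no array was well above background. The rise was at least 1.40-fold, a lower bound that sets each dim array at the lowest signal well above background. The probe was tested only because it passed the background flag on these WSB/EiJ deficient arrays. Its limma adjusted p of 5.9e-06 also uses control signals not above background, and it is no separate support for the rise. In C3H/HeJ the second probe was above background on 1 deficient array and no control array, and its change was 0.80 ± 0.35 (adjusted p = 0.0687). It passed with quantile normalization (1.18, adjusted p = 0.00719) and without control 4 (1.00, adjusted p = 0.0377) or deficient 4 (1.13, adjusted p = 0.00834).

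The variant 2 probe, in the transcript that starts next to the p53 match printed above, was above background on 3 of 4 WSB/EiJ deficient arrays. It read 15.4, 13.7, 13 and 6.69 there and 3.00, 2.31, 2.73 and 2.80 on WSB/EiJ control arrays. In C3H/HeJ it read 5.04, 9.13, 4.34 and 4.80 on the deficient diet, with 1 array above background, and 2.03, 4.35, 2.71 and 3.87 on the control diet. No A/J array was above background. The probe did not meet the filter, and with no filter its change was 2.11 in WSB/EiJ (adjusted p = 6.0e-06), 0.84 in C3H/HeJ (adjusted p = 0.0431) and -0.43 in A/J (adjusted p = 0.438), sizes that rest on signals near background.

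**Figure D2:**
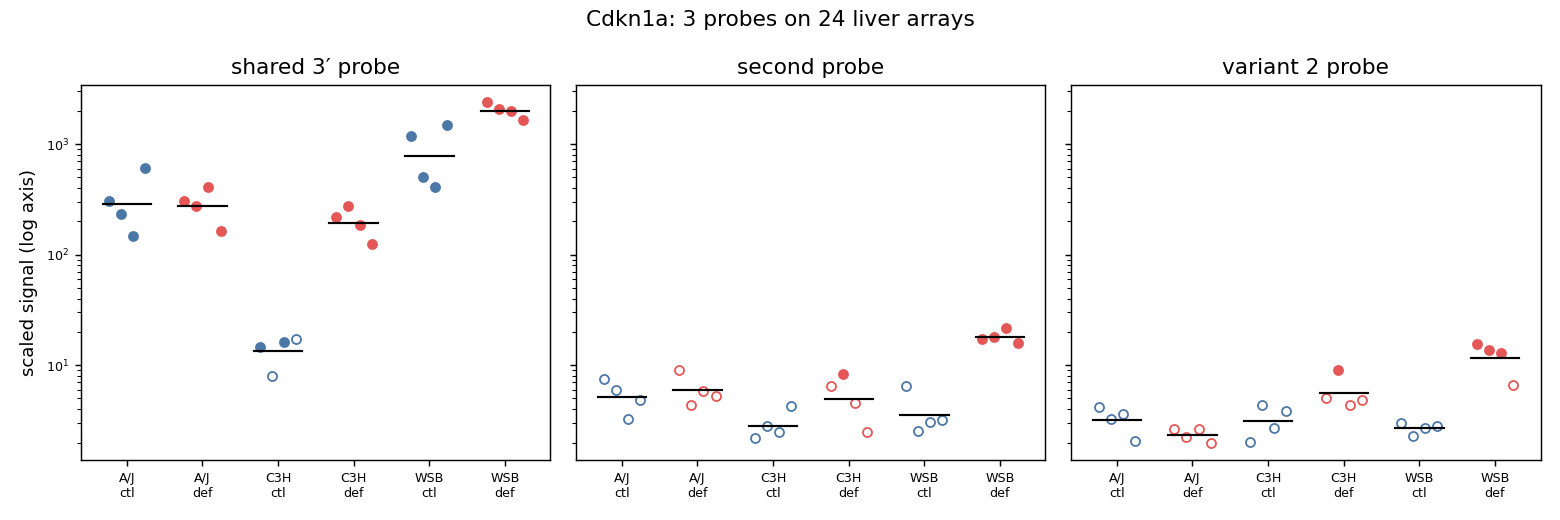
Scaled signal (log axis, arbitrary units) of the 3 Cdkn1a probes on every array in the 6 groups of strain and diet (ctl, control, blue; def, deficient, red); bars are group means of log2 values and open points were not well above background. The shared 3′ probe separates C3H/HeJ control arrays from all others, while the second and the variant 2 probe are filled mainly in WSB/EiJ deficient livers, on 4 and 3 arrays.

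Ccng1 encodes cyclin G1, which recruits a phosphatase to MDM2 and does not drive the cell cycle as other cyclins do. Its probe lies at mm9 chr11:40562427-40562486 on the minus strand. It read 378, 409, 336 and 383 on C3H/HeJ control arrays and 427, 525, 462 and 504 on deficient arrays. In WSB/EiJ it read 488, 394, 384 and 406 on the control diet and 709, 663, 711 and 591 on the deficient diet. The diets did not overlap in either strain, and they did in A/J, where all 8 arrays lay between 398 and 607. Ccng1 rose by 0.35 ± 0.12 in C3H/HeJ (adjusted p = 0.0232) and by 0.68 ± 0.12 in WSB/EiJ (adjusted p = 3.6e-05), and was at 0.09 ± 0.12 in A/J (adjusted p = 0.698). The C3H/HeJ call was lost without control 3 (0.29, adjusted p = 0.0739) or deficient 2 (0.30, adjusted p = 0.0790).

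Mdm2, the ubiquitin ligase of the p53 feedback loop, rose in WSB/EiJ alone among the 3 tests. Its probe lies at mm9 chr10:117126010-117126069 on the minus strand. WSB/EiJ arrays read 4210, 3580, 4290 and 3530 on the control diet and 6380, 5960, 5000 and 5540 on the deficient diet. All deficient arrays were above all control arrays, and the rise was 1.47-fold (0.55 ± 0.10, adjusted p = 5.1e-05). The change was -0.06 ± 0.10 in A/J (adjusted p = 0.749) and 0.12 ± 0.10 in C3H/HeJ (adjusted p = 0.324), where the diets overlapped and all arrays lay between 2610 and 3470. The C3H/HeJ change passed the threshold with spike-in scaling (0.60, adjusted p = 0.00558) and with quantile normalization (0.28, adjusted p = 0.0492).

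Bax, a pore-forming protein of the outer mitochondrial membrane, was one of the 2 genes that rose in all 3 strains. Its probe lies at mm9 chr7:52717122-52717181 on the minus strand. In WSB/EiJ it read 1910, 1890, 1900 and 2080 on the control diet and 3450, 3390, 3170 and 3340 on the deficient diet, a rise of 0.78 ± 0.10 (adjusted p = 1.3e-06). In A/J it read 1810, 2060, 2120 and 1900 against 2960, 2690, 2810 and 2100, and in C3H/HeJ 1720, 1890, 1810 and 2070 against 2340, 2620, 2270 and 2020. In both strains 1 deficient array, number 4, lay within the range of the controls. The rise was 0.41 ± 0.10 in A/J (adjusted p = 0.0168; 0.50, adjusted p = 0.00411, without the pair numbered 4) and 0.30 ± 0.10 in C3H/HeJ (adjusted p = 0.0235). Single arrays ended the call. In A/J these were control 1 and deficient arrays 1 and 3, without which the change was 0.35 to 0.38 with an adjusted p of 0.0607 to 0.0766. In C3H/HeJ they were controls 1 and 3 and deficient arrays 1 and 2, without which the change was 0.24 to 0.29 and the adjusted p 0.0522 to 0.0963.

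Bbc3 encodes PUMA, a BH3-only protein that frees BAX and BAK from their inhibitors. The probe is at mm9 chr7:16903403-16903462 on the plus strand. It read 3360, 2420, 3410 and 2740 on WSB/EiJ control arrays and 5720, 5440, 4960 and 5060 on deficient arrays. The groups did not overlap and the rise was 1.79-fold (0.84 ± 0.22, adjusted p = 0.00232). In C3H/HeJ the sign was the opposite, with 3820, 3920, 3900 and 3220 on the control diet and 2590, 2850, 3960 and 2330 on the deficient diet, but these arrays overlapped and the change of -0.37 ± 0.22 did not pass (adjusted p = 0.196). In A/J it was at 0.07 ± 0.22 (adjusted p = 0.880) and turned to -0.34 (adjusted p = 0.239) without the pair numbered 4.

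Trp53inp1, a nuclear and autophagy protein that promotes p53 activity, rose in C3H/HeJ and in WSB/EiJ. Both of its probes are on the plus strand, the brighter at mm9 chr4:11101174-11101233 and the second at chr4:11092530-11092589. WSB/EiJ control arrays fell into a high pair (3820 and 3410, arrays 1 and 4) and a low pair (1740 and 1610), and the same arrays, 1 and 4, were the high ones for Cdkn1a. On the deficient diet WSB/EiJ arrays read 8740, 8570, 6620 and 6720, all above the controls, a rise of 3.09-fold (1.63 ± 0.23, adjusted p = 3.2e-06). In C3H/HeJ it read 1320, 1280, 1080 and 1410 on the control diet and 1810, 2090, 2070 and 1740 on the deficient diet, which do not overlap, a rise of 0.60 ± 0.23 (adjusted p = 0.0403). The second probe, nearer the transcript's start, gave 1.25 ± 0.19 in WSB/EiJ (adjusted p = 8.4e-06) and 0.57 ± 0.19 in C3H/HeJ (adjusted p = 0.0215). Neither probe passed in A/J (-0.16 ± 0.23 and 0.08 ± 0.19). The C3H/HeJ call of the brighter probe was lost when any one of controls 1 to 3 or deficient arrays 1 to 3 was left out (change 0.53 to 0.63, adjusted p from 0.0591 to 0.104) and with slide as a fixed block (0.54, adjusted p = 0.0654).

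Phlda3, a pleckstrin homology protein that competes with AKT for membrane lipids, had the largest rise of the 9 tested genes in WSB/EiJ. The probe is at mm9 chr1:137665642-137665701 on the plus strand. It read 231, 185, 238 and 210 on WSB/EiJ control arrays and 4070, 3040, 2640 and 3160 on deficient arrays, a 14.8-fold rise (3.89 ± 0.39, adjusted p = 5.8e-08). In C3H/HeJ it read 128, 130, 121 and 92.9 against 1140, 1830, 1240 and 701, a 9.94-fold rise (3.31 ± 0.39, adjusted p = 4.0e-06). The lowest deficient array was several times the highest control array in both strains, and in contrast to Cdkn1a the control signals were above background on all arrays. Within the 3 slides the rise ranged from 3.74 to 4.19 in WSB/EiJ and from 3.19 to 3.82 in C3H/HeJ.

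In A/J, Phlda3 read 249, 333, 211 and 917 on control arrays 1 to 4 and 913, 553, 1090 and 295 on deficient arrays 1 to 4. Control 4 was the highest control array and deficient 4 the lowest deficient array, as they were for Cdkn1a. With them the change was 0.83 ± 0.39 (adjusted p = 0.212), and without them it was 1.66 (adjusted p = 0.00135). The choice of these arrays favours a larger change, so the value without them is no test of a rise in A/J. Leaving out only control 4 (1.29, adjusted p = 0.0258) or only deficient 4 (1.2, adjusted p = 0.0470) also brought it past the threshold.

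Eda2r, the receptor of ectodysplasin A2, was close to background. Its probes lie on the minus strand of the X chromosome, at mm9 chrX:94534281-94534340 and chrX:94531320-94531379. The first was above background on 2 of 24 arrays, both WSB/EiJ deficient, where the 4 arrays read 23.8, 8.44, 7.37 and 5.49 against 3.58, 5.36, 3.40 and 3.43 on the control diet. The other probe was above background on 0 arrays. Without the filter the change of the first probe in WSB/EiJ was 1.30 (adjusted p = 0.0132), on signals whose size is uncertain.

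Sesn2 encodes a sestrin, a leucine sensor that restrains the growth kinase mTORC1. The probe is at mm9 chr4:132048858-132048917 on the minus strand. It read 835, 853, 808 and 855 on WSB/EiJ control arrays and 645, 670, 720 and 574 on deficient arrays. The deficient arrays were all lower, and the fall was by 0.37 ± 0.13 on the log2 scale (adjusted p = 0.0186). The median change of all tested probes in this strain was -0.35, from which Sesn2 differed by -0.02, and with spike-in scaling Sesn2 rose (0.56, adjusted p = 0.00183). With median centring it was at -0.21 (adjusted p = 0.179) and with quantile normalization at -0.18 (adjusted p = 0.226), and without deficient 4 it was at -0.31 (adjusted p = 0.0648). Sesn2 was at -0.29 ± 0.13 in C3H/HeJ (adjusted p = 0.0871) and at 0.14 ± 0.13 in A/J (adjusted p = 0.558).

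Gdf15, a secreted stress hormone that acts on appetite through a hindbrain receptor, rose in all 3 strains. The probe is at mm9 chr8:73153293-73153352 on the minus strand. In C3H/HeJ it read 256, 214, 211 and 364 on the control diet and 1520, 2090, 2310 and 905 on the deficient diet, a 6.31-fold rise (2.66 ± 0.31, adjusted p = 3.5e-06). In WSB/EiJ it read 2930, 2910, 1340 and 2600 against 5150, 6290, 3950 and 4540, a 2.10-fold rise (1.07 ± 0.31, adjusted p = 0.00478). In A/J it read 1500, 1080, 958 and 658 against 2120, 3160, 2910 and 1680, a 2.38-fold rise (1.25 ± 0.31, adjusted p = 0.0180; 1.22, adjusted p = 0.0248, without the pair numbered 4). The diets did not overlap in any strain. WSB/EiJ livers on the control diet (mean 2340) overlapped A/J livers on the deficient diet (mean 2390), and C3H/HeJ control livers (mean 255) lay below every other group. The A/J call was lost when control 4, deficient 2 or deficient 3 alone was left out, with changes of 1.04 to 1.16 and an adjusted p from 0.0526 to 0.0701.

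**Figure D3:**
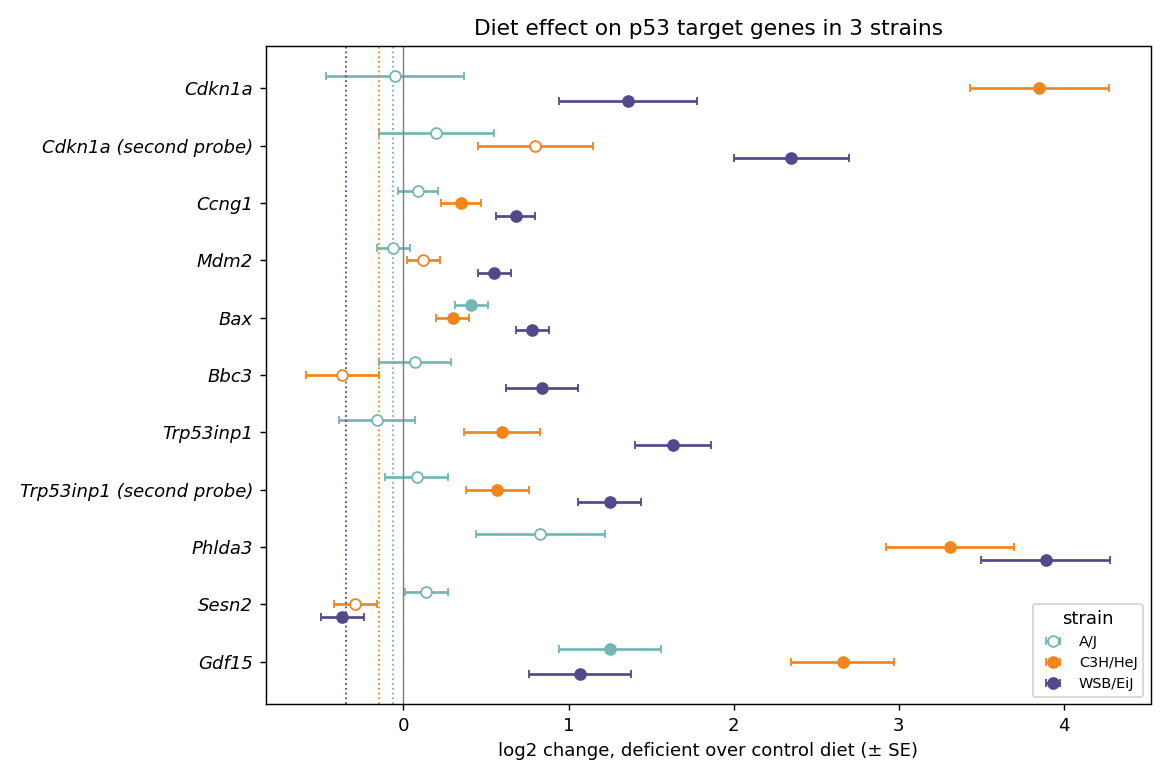
Log2 change from the control to the deficient diet (x axis, ± SE of limma, 4 arrays a group) of the 11 tested probes, by strain. Filled points have an adjusted p below 0.05 and dotted lines mark the median change of all tested probes in each strain (-0.06, -0.15 and -0.35). In C3H/HeJ the shared Cdkn1a probe (3.85), Phlda3 (3.31) and Gdf15 (2.66) lie farthest to the right, in WSB/EiJ Phlda3 (3.89) and the second Cdkn1a probe (2.35), and in A/J Gdf15 (1.25). The 2.35 rests on control signals not above background, with a lower bound of 1.40-fold, so its rank is uncertain.

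The diet effects were then compared between strains, as differences of log2 changes in the same fit. Between WSB/EiJ and A/J 6 of the 10 genes differed, where 43.6% of all tested probes did. Phlda3 (3.06 ± 0.56, adjusted p = 3.1e-04), Trp53inp1 (1.78 ± 0.32, adjusted p = 2.8e-04), Mdm2 (0.61 ± 0.14, adjusted p = 0.00170), Ccng1 (0.59 ± 0.17, adjusted p = 0.00731) and Bax (0.37 ± 0.14, adjusted p = 0.0426) rose more in WSB/EiJ. The Bax call was lost with slide as a fixed block (0.33, adjusted p = 0.0703), with the replicate block (0.37, adjusted p = 0.0556), with the authors' deposited table (0.33, adjusted p = 0.0668) and in 11 of 24 fits that left out 1 array (0.26 to 0.39, adjusted p up to 0.106). Sesn2 had the lower change there (-0.51 ± 0.19, adjusted p = 0.0335), a difference that was 0.06 with spike-in scaling (adjusted p = 0.848) and did not pass in 7 of the 24 fits (adjusted p up to 0.0819). Without the A/J pair numbered 4, Bax (0.28, adjusted p = 0.113) and Sesn2 (-0.33, adjusted p = 0.166) no longer differed past the threshold, and Bbc3 did (1.18, adjusted p = 0.00162), while Phlda3 (2.23), Trp53inp1 (1.85), Mdm2 (0.55) and Ccng1 (0.50) kept their calls.

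Between WSB/EiJ and C3H/HeJ 6 genes differed as well, against 21.4% of all tested probes, and they went both ways. Bbc3 (1.21 ± 0.31, adjusted p = 0.0106), Trp53inp1 (1.02 ± 0.32, adjusted p = 0.0285), Bax (0.48 ± 0.14, adjusted p = 0.0227) and Mdm2 (0.43 ± 0.14, adjusted p = 0.0325) rose more in WSB/EiJ. The second Trp53inp1 probe was at 0.68 ± 0.27 and did not pass (adjusted p = 0.0746). With 1 array left out, the Mdm2 call was lost in 7 of 24 fits (adjusted p up to 0.0751), that of Trp53inp1 in 6 (adjusted p up to 0.0649) and that of Bax in 1 (adjusted p = 0.0507), and Mdm2 also with median centring (0.55, adjusted p = 0.0564). Cdkn1a (-2.49 ± 0.60, adjusted p = 0.00657) and Gdf15 (-1.59 ± 0.44, adjusted p = 0.0154) rose more in C3H/HeJ, from the lower control level. The Cdkn1a difference was -0.25 with normexp background correction and quantile normalization (adjusted p = 0.757), where the offset of 50 by itself lowers folds from dim signals. The second Cdkn1a probe was at 1.54 ± 0.49, but it was tested only because it passed the background flag on WSB/EiJ deficient arrays. In C3H/HeJ it was above background on 1 deficient array and no control array, so its value cannot be set against the shared probe's. The Gdf15 difference was -1.14 with spike-in scaling (adjusted p = 0.116), -0.95 with normexp correction and quantile normalization (adjusted p = 0.125) and -1.23 with quantile normalization alone (adjusted p = 0.0724). The change of Phlda3 did not differ past the threshold between these strains (0.58 ± 0.56, adjusted p = 0.472).

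Between C3H/HeJ and A/J 2 genes differed, against 2.03% of all tested probes. They were Cdkn1a (3.90 ± 0.60, adjusted p = 0.00212) and Phlda3 (2.48 ± 0.56, adjusted p = 0.0216), both with the larger rise in C3H/HeJ. Without the A/J pair numbered 4 the differences were 3.29 (adjusted p = 0.0102) and 1.65 (adjusted p = 0.0415). Gdf15 was at 1.41 ± 0.44 (adjusted p = 0.103). These 3 sets of differences share groups with each other, so they are given side by side and not as separate evidence.

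On the control diet alone the strains already differed. By their brightest probes, Cdkn1a, Gdf15 and Trp53inp1 were lower in C3H/HeJ than in both other strains. The share of all tested probes lower in both comparisons is not given here, so these genes are named without a background. The second Trp53inp1 probe did not pass against A/J (-0.42 ± 0.19, adjusted p = 0.129). Nor did it pass for WSB/EiJ minus C3H/HeJ (0.44 ± 0.19, adjusted p = 0.0759). Against A/J, 7 of the 10 genes differed in C3H/HeJ, 5 lower and 2 higher, where 20.6% of all tested probes differed. Cdkn1a was 21.1-fold lower (-4.40 ± 0.42, adjusted p = 1.2e-07), Gdf15 3.95-fold (-1.98 ± 0.31, adjusted p = 8.2e-05), Phlda3 3.04-fold (-1.61 ± 0.39, adjusted p = 0.00544), Trp53inp1 2.28-fold (-1.19 ± 0.23, adjusted p = 6.4e-04) and Ccng1 1.32-fold (-0.40 ± 0.12, adjusted p = 0.0182). The Cdkn1a fold is uncertain, since 2 of 4 C3H/HeJ control arrays were not above background for it, and the second Cdkn1a probe, above background on no control array of either strain, gave -0.86 ± 0.35 (adjusted p = 0.0857). Bbc3 (0.87 ± 0.22, adjusted p = 0.00721) and Sesn2 (0.45 ± 0.13, adjusted p = 0.0192) were higher in C3H/HeJ. Without the A/J pair numbered 4, Ccng1 (-0.37, adjusted p = 0.0506) and Sesn2 (0.33, adjusted p = 0.0805) no longer passed, and the 5 other calls held.

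WSB/EiJ differed from C3H/HeJ in 4 genes on the control diet, all higher in WSB/EiJ, against 38.2% of all tested probes. Cdkn1a was 58.1-fold higher (5.86 ± 0.42, adjusted p = 6.5e-10), on C3H/HeJ arrays of which 2 of 4 were above background, and Gdf15 was 9.17-fold higher (3.20 ± 0.31, adjusted p = 5.7e-08). Trp53inp1 (0.96 ± 0.23, adjusted p = 0.00198) and Mdm2 (0.41 ± 0.10, adjusted p = 0.00233) were the others. This Mdm2 call was lost with spike-in scaling (0.21, adjusted p = 0.35). It was also lost with normexp background correction and quantile normalization (0.29, adjusted p = 0.0541). Against A/J, WSB/EiJ was higher in 4 genes, where 43.1% of all tested probes differed: Cdkn1a (1.46 ± 0.42, adjusted p = 0.00822), Gdf15 (1.21 ± 0.31, adjusted p = 0.00344), Sesn2 (0.56 ± 0.13, adjusted p = 0.00177) and Mdm2 (0.25 ± 0.10, adjusted p = 0.0457). For Mdm2 that difference was -0.0021 with spike-in scaling (adjusted p = 0.993) and 0.06 with quantile normalization (adjusted p = 0.688). It was also lost with the replicate block (adjusted p = 0.0638) and in 12 of 24 fits that left out 1 array (adjusted p up to 0.140). With spike-in scaling Cdkn1a (1.21, adjusted p = 0.053) and Sesn2 (0.31, adjusted p = 0.102) no longer passed. Cdkn1a was also lost with the mean of its probes (0.46, adjusted p = 0.279), and arrays of WSB/EiJ and A/J overlapped for Cdkn1a and Gdf15. The second Cdkn1a probe, above background on no control array, gave 0.32 ± 0.35 for WSB/EiJ minus C3H/HeJ and -0.54 ± 0.35 for WSB/EiJ minus A/J. Without the A/J pair numbered 4 the same 4 genes passed, Cdkn1a at 1.83, Gdf15 at 1.01, Sesn2 at 0.44 and Mdm2 at 0.28. The shares of 4 genes among 10 lie near those backgrounds.

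The transcript of p53 itself did not pass the test in any strain. Trp53 was at -0.18 ± 0.18 in A/J (adjusted p = 0.593), 0.07 ± 0.18 in C3H/HeJ (adjusted p = 0.782) and 0.16 ± 0.18 in WSB/EiJ (adjusted p = 0.423). Mdm4, the partner of MDM2, did not pass either (adjusted p = 0.342, 0.992 and 0.885). Of 21 regulators of p53, 1 rose and 0 fell in A/J, 2 rose and 5 fell in C3H/HeJ, and 5 rose and 8 fell in WSB/EiJ, with medians of -0.04, -0.06 and -0.03. Over all tested probes 3.99% rose and 3.32% fell in A/J, 14.2% and 25.5% in C3H/HeJ, and 20.2% and 49.1% in WSB/EiJ. The medians over all tested probes were -0.06, -0.15 and -0.35. The regulator counts lie near those shares, which are also the background for the lists below. The kinase gene Hipk2 rose in A/J (0.41 ± 0.11, adjusted p = 0.0216), a call lost without the pair numbered 4, and the checkpoint kinase gene Chek2 in C3H/HeJ (0.62 ± 0.20, 3 of 4 control arrays above background, adjusted p = 0.0178), where Trp53inp2 had the largest fall (-0.47 ± 0.13, adjusted p = 0.00693). In WSB/EiJ Cdkn2a, whose ARF product restrains MDM2, rose (2.51 ± 0.49, 1 of 4 control arrays above background, adjusted p = 1.4e-04). Chek1, the kinase of the replication checkpoint, was above background on 1 of 4 WSB/EiJ control arrays and on 0 deficient arrays. Its change there was -1.25 ± 0.20 (adjusted p = 1.9e-05), a size that rests on signals near background.

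Of 40 other p53 targets tested, 6 rose and 0 fell in A/J, 15 rose and 5 fell in C3H/HeJ, and 21 rose and 11 fell in WSB/EiJ. Their medians were 0.12, 0.33 and 0.57. Thbs1, thrombospondin, not above background on C3H/HeJ control arrays, rose at least 5.03-fold there (adjusted p = 2.0e-05). Ckap2, a spindle protein, not above background on WSB/EiJ control arrays, rose at least 9.84-fold (adjusted p = 9.2e-12). Dcxr, a xylulose reductase abundant in liver, had the largest fall of the list in C3H/HeJ (-0.69 ± 0.24, adjusted p = 0.0280) and in WSB/EiJ (-1.89 ± 0.24, adjusted p = 1.1e-06).

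The families around Cdkn1a and Bax moved in part. Of 6 other CDK inhibitors, 0 passed in A/J, 2 rose in C3H/HeJ and 5 rose in WSB/EiJ, and 0 fell (medians 0.27, 0.25 and 0.88). Cdkn2a is counted here and among the regulators. Cdkn2c had the largest rise in C3H/HeJ (2.92 ± 0.30, 3 of 4 control arrays above background, adjusted p = 6.6e-07) and Cdkn2b in WSB/EiJ (2.92 ± 0.28, 2 of 4 control arrays above background, adjusted p = 3.2e-08). Of 15 BCL2 family genes 2 rose and 0 fell in A/J, 4 rose and 3 fell in C3H/HeJ, and 7 rose and 4 fell in WSB/EiJ (medians 0.40, -0.02 and 0.11). Pmaip1 is counted in this family and among the other p53 targets. Bcl2a1d, an anti-apoptotic gene of haematopoietic cells with near-identical copies that its probe may not separate, had the largest rise in each strain (2.26 ± 0.46, 3.90 ± 0.46 and 5.49 ± 0.46). Bmf in C3H/HeJ (-1.46 ± 0.36, adjusted p = 0.00365) and Bik in WSB/EiJ (-1.97 ± 0.26, adjusted p = 2.0e-06), both BH3-only genes like Bbc3, had the largest falls.

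In C3H/HeJ and WSB/EiJ, where Cdkn1a rose, all tested cell cycle genes rose too, and in A/J some rose while Cdkn1a did not pass. Of 23 cell cycle genes 9 rose in A/J and 23 in both C3H/HeJ and WSB/EiJ, and 0 fell, with medians of 0.86, 2.57 and 2.98. Ccnd1, cyclin D1, whose kinase p21 binds, had the largest rise in A/J (2.04 ± 0.23, adjusted p = 1.7e-05) and C3H/HeJ (4.14 ± 0.23, adjusted p = 3.5e-10), and the proliferation marker Mki67 in WSB/EiJ (4.67 ± 0.29, adjusted p = 9.3e-11). Of 17 integrated stress response targets, the other known inducer pathway of Gdf15 and Sesn2, 6 rose and 2 fell in A/J, 7 rose and 3 fell in C3H/HeJ, and 11 rose and 3 fell in WSB/EiJ (medians 0.42, 0.63 and 2.31). Ddit4 and Sesn1 are counted here and among the other p53 targets. Psat1 of serine synthesis led in A/J (2.58 ± 0.57, adjusted p = 0.00843), the stress protein Nupr1 in C3H/HeJ (4.65 ± 0.42, adjusted p = 1.7e-07) and the hormone Fgf21 in WSB/EiJ (6.57 ± 0.47, adjusted p = 6.7e-10). Cth, cystathionine lyase, had the largest fall in all 3 strains (-1.55 ± 0.29, -1.52 ± 0.29 and -1.67 ± 0.29).

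Markers of other liver cells changed with diet in the same strains in which the p53 targets rose. Of 7 macrophage markers 3 rose in A/J, 5 in C3H/HeJ and 6 in WSB/EiJ, and 0 fell. Their summed signal was 11800 to 21500 on control and 22000 to 27500 on deficient arrays in A/J, 7330 to 10400 and 15100 to 22400 in C3H/HeJ, and 4270 to 5060 and 28300 to 31800 in WSB/EiJ. Cd68 rose by 1.19 ± 0.23, 1.70 ± 0.23 and 4.20 ± 0.23 in A/J, C3H/HeJ and WSB/EiJ. Of 7 stellate cell and myofibroblast markers 1, 5 and 6 rose and 0 fell, and their sum in WSB/EiJ was 2290 to 3090 on control and 23100 to 47900 on deficient arrays. Col1a1 rose by 3.99 ± 0.61 in C3H/HeJ and 5.53 ± 0.61 in WSB/EiJ. Cd68 and Col1a1 were above background on all arrays, and the part of these cells in the changes of the p53 targets was not tested.

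Hepatocyte markers went down as the p53 targets went up. Of 6, 1 fell in A/J and 6 in both C3H/HeJ and WSB/EiJ, and 0 rose. Their summed signal was 804000 to 1040000 on control and 631000 to 836000 on deficient arrays in A/J, 774000 to 1060000 and 464000 to 790000 in C3H/HeJ, and 959000 to 1040000 and 439000 to 518000 in WSB/EiJ. Alb fell by 0.96 ± 0.15 in WSB/EiJ. Of 6 bile duct and progenitor markers 0, 2 and 5 rose, and Krt19 rose in WSB/EiJ (2.37 ± 0.51). Of 6 endothelial markers 1 rose in A/J, 3 rose in C3H/HeJ, and 2 rose and 2 fell in WSB/EiJ, and Pecam1 did not pass in any strain (0.15 ± 0.17, 0.16 ± 0.17 and -0.02 ± 0.17). Of 6 lymphocyte markers 1, 2 and 3 fell and 0, 1 and 1 rose, and Cd3e fell in all 3 strains (-0.95 ± 0.21, -1.26 ± 0.21 and -1.50 ± 0.21). Of 4 erythroid markers 1, 4 and 3 fell, and of 4 neutrophil markers 0, 1 and 2 fell and 1 rose in WSB/EiJ. Over all tested probes 3.32%, 25.5% and 49.1% fell in A/J, C3H/HeJ and WSB/EiJ, and 3.99%, 14.2% and 20.2% rose. The lymphocyte and neutrophil counts in C3H/HeJ and WSB/EiJ lie near that background. Of 3 pancreas markers 2 rose in WSB/EiJ, and the 1 adipocyte marker tested did not pass in any strain. The part of these shifts in the changes of the p53 targets was not tested either. Without the A/J pair numbered 4, the A/J counts were 14 risen cell cycle genes, 7 other p53 targets, 5 BCL2 family genes, 0 regulators and 0 CDK inhibitors, with 0 fallen in each, and 6 risen and 1 fallen stress response targets. Among markers 4 macrophage, 4 stellate cell and 2 endothelial genes rose and 3 hepatocyte, 2 erythroid, 1 lymphocyte and 1 neutrophil genes fell. The A/J shares given above belong to the fit with all arrays. None is given for the fit without the pair, so these counts have no background and cannot be set against those with all arrays.

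**Figure D4:**
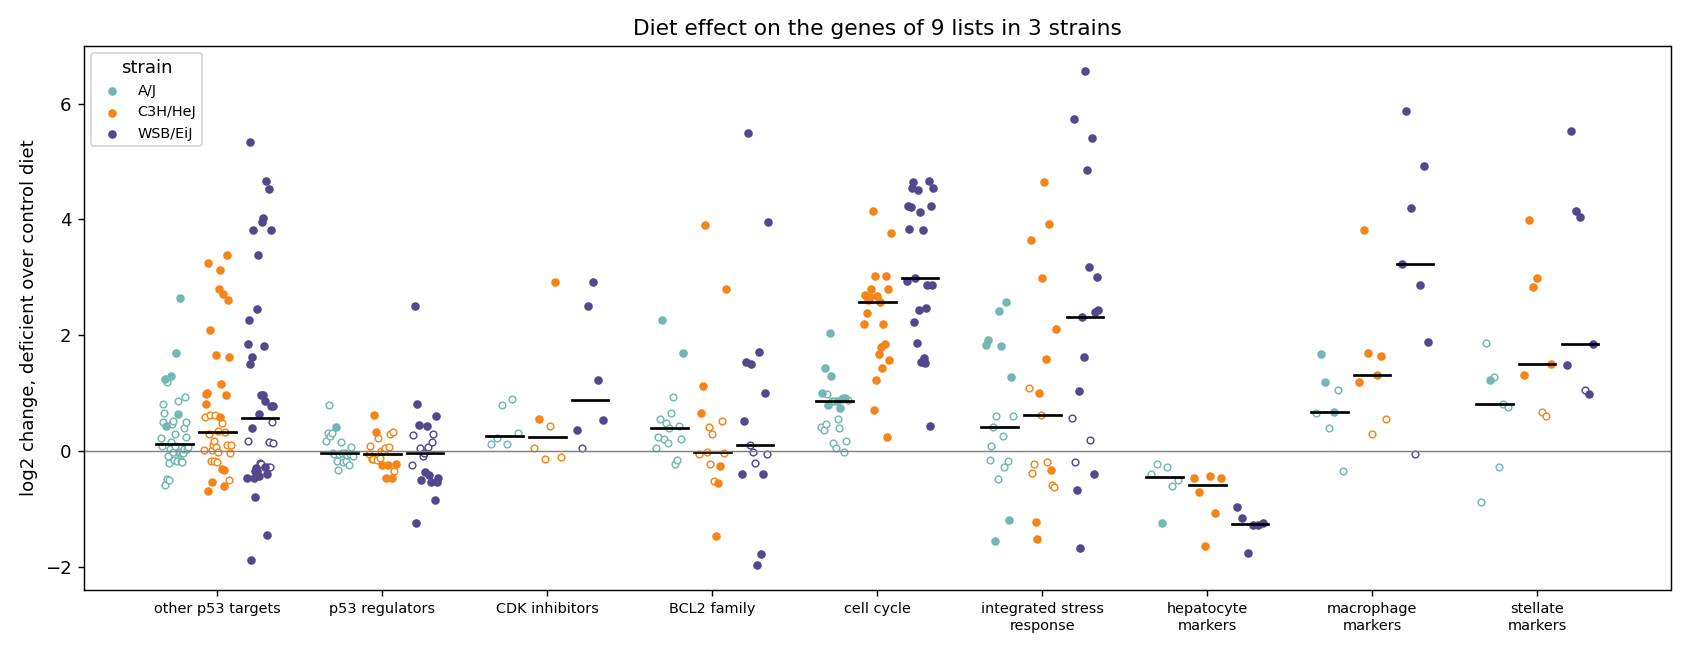
Log2 change from the control to the deficient diet (y axis) of the tested genes in 9 lists (x axis), by strain; each point is 1 gene by its brightest tested probe, filled where the adjusted p was below 0.05, and bars are list medians. The cell cycle medians are 0.86, 2.57 and 2.98 in A/J, C3H/HeJ and WSB/EiJ, while the p53 regulators have medians of -0.04, -0.06 and -0.03 with called genes on both sides of 0 in C3H/HeJ and WSB/EiJ (2 rose and 5 fell, and 5 rose and 8 fell). Over all tested probes 14.2% rose and 25.5% fell in C3H/HeJ, and 20.2% and 49.1% in WSB/EiJ.

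The 3 targets with the widest span of group means were Cdkn1a (7.22 on the log2 scale), Phlda3 (4.77) and Gdf15 (4.27), followed by Trp53inp1 (2.59), and the other 5 tested genes spanned 0.56 to 1.39. For each of the 3 the nearest named genes were found by the mean absolute difference of centred log2 signals over the 24 arrays, a description without a test since all arrays share strain and diet. Nearest to Phlda3 were Plxdc2 (0.28), the topoisomerase gene Top2a (0.29) and the galectin gene Lgals1 (0.30). Among the nearest to Gdf15 were Adamts9 (0.50) and Clca2 (0.51). Cdkn1a had no close neighbour: the nearest were Plch1 (0.73), Sparcl1 (0.75) and the tubulin gene Tubb2a (0.85), which changed by 2.04 ± 0.31, 2.19 ± 0.42 and 1.92 ± 0.23 in C3H/HeJ, less than Cdkn1a did there.

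Across the arrays 44.4% to 56.0% of gene spots were well above background and 0 were saturated. The scale of the arrays affects the members' changes by strain. Against 10 spike-in probes (E1A) the deficient arrays stood higher by 0.36 in A/J, 0.48 in C3H/HeJ and 0.93 in WSB/EiJ than under the percentile scaling, and the share of called probes that rose went from 54.5%, 35.8% and 29.2% to 95.4%, 90.6% and 88.7%. Relative to the median of all tested probes, the changes in WSB/EiJ were 4.24 for Phlda3, 1.98 for Trp53inp1, 1.71 for Cdkn1a, 1.42 for Gdf15, 1.19 for Bbc3, 1.13 for Bax, 1.03 for Ccng1, 0.90 for Mdm2 and -0.02 for Sesn2.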

How the data were processed

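Per the labels' protocols, liver RNA was purified on RNeasy columns, and 0.5 ug was labelled with Cy3 by the authors and hybridised to arrays on 3 slides of 8. Per the file headers, the authors made each spot's intensity with Agilent Feature Extraction (version 10.7 per the submitters' processing notes), with background subtraction and detrending within each array. The deposited files also hold yes-or-no spot flags, the only other values used. Each array in the normalized intensity table that the authors deposited differed from its processed signals by a single factor only, and 0 columns had no sample.

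Outlier spots (3332) were left out, spots of a probe averaged, and log2 signals scaled to each array's 75th percentile. Testing was limited to probes passing the background flag on all 4 arrays in some group (28159 of 55681). One limma 3.58.1 model (R 4.3.3) with a mean per group gave 2-sided moderated tests with Benjamini-Hochberg adjustment over all tested probes, and was tested on simulated data. Members and lists were chosen with earlier results of these data known. Named genes are the members, Trp53, Mdm4, each pathway list's largest rise and fall in a strain, the first gene of the marker lists described, and the 3 nearest profiles of 3 members. Some genes that this rule names are not reported here. Signal precision is limited by the number of arrays. Probe positions (mm9) come from the array design and were not realigned.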

Additional observations from a re-analysis of the deposited data

Results flagged for a closer look

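Among 84 pairs of probe and group looked at, 5 held an array whose gap to the nearest of its group exceeded Dixon's 95% critical value for 4 samples, and chance alone passes about 1 in 20. They were Bax on WSB/EiJ control 4 (gap 0.857 of the group's range, the highest array), Bbc3 on A/J deficient 4 (0.875, the highest) and on C3H/HeJ control 4 (0.862, the lowest), Gdf15 on WSB/EiJ control 3 (0.841, the lowest), and the first Eda2r probe on WSB/EiJ control 2 (0.879, the highest, with no array of the group above background).

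Diet effects that differed between strains were, for C3H/HeJ minus A/J, Cdkn1a (3.90) and Phlda3 (2.48). For WSB/EiJ minus A/J they were Phlda3 (3.06), the second Cdkn1a probe (2.14), both Trp53inp1 probes (1.78 and 1.17), Mdm2 (0.61), Ccng1 (0.59), Bax (0.37) and Sesn2 (-0.51). For WSB/EiJ minus C3H/HeJ they were the second Cdkn1a probe (1.54), Bbc3 (1.21), Trp53inp1 (1.02), Bax (0.48), Mdm2 (0.43), Gdf15 (-1.59) and the shared Cdkn1a probe (-2.49). The second Cdkn1a probe was above background on 4 WSB/EiJ deficient arrays, 1 C3H/HeJ deficient array and no A/J array. Its differences thus rest on signals near background, and their sign cannot be set against that of the shared probe.

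Of the probes left out of the tests, the variant 2 probe of Cdkn1a was above background on 3 WSB/EiJ deficient arrays and 1 C3H/HeJ deficient array, and a probe of Eda2r on 2 WSB/EiJ deficient arrays. No control array passed for either.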

How the results depend on the processing

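The 9 counts of p53 target genes called were recomputed under 43 alternatives, 24 of which leave out 1 array. With 1 array left out the count was 0 to 3 in A/J, 3 to 6 in C3H/HeJ and 8 to 9 in WSB/EiJ. For the differences between diet effects it was 1 to 3 (C3H/HeJ minus A/J), 4 to 7 (WSB/EiJ minus A/J) and 3 to 6 (WSB/EiJ minus C3H/HeJ), and on the control diet 5 to 7, 3 to 5 and 4 to 5 in the same order. The A/J count was 1 without control 1, deficient 1 or deficient 2 and 0 without deficient 3. The C3H/HeJ count was 3 without control 3 or deficient 2, the C3H/HeJ minus A/J count 1 without C3H/HeJ deficient 2, and the WSB/EiJ minus C3H/HeJ count 3 without C3H/HeJ deficient 4. The A/J count of 2 was 1 with no background filter, 0 with only the compared groups fitted or at an adjusted p of 0.01, and 1 at a log2 change of at least 1. The C3H/HeJ count of 6 was 3 with no filter, at 0.01 and at a log2 change of at least 1, and the WSB/EiJ count of 9 was 4 at the last. The count of 2 for C3H/HeJ minus A/J was 1 with spike-in scaling, no filter, probes above background on all arrays, only the compared groups and 0.01. WSB/EiJ minus A/J gave 2 at a log2 change of at least 1, and WSB/EiJ minus C3H/HeJ 1 at 0.01. On the control diet, C3H/HeJ minus A/J gave 4 with only the compared groups and at a log2 change of at least 1, WSB/EiJ minus A/J 2 with spike-in scaling, only the compared groups and a log2 change of at least 1, and WSB/EiJ minus C3H/HeJ 2 at the last. The cause was not tested. Reversals came with spike-in scaling: Sesn2 in WSB/EiJ (0.56) and in WSB/EiJ minus A/J (0.06), and Mdm2 between WSB/EiJ and A/J controls (-0.0021). Of 4203 values of single probes under an alternative, 3949 kept direction and call or had neither, 182 lost a call and 69 gained one. Replicate numbers are shared by the groups but same-numbered arrays of a strain did not deviate together (correlations -0.32 to 0.06 in 12 pairs). With the replicate block the counts were 2, 6 and 9 in A/J, C3H/HeJ and WSB/EiJ, as without it, and 5 for WSB/EiJ minus A/J and 3 for WSB/EiJ minus A/J controls. Over all probes, called counts ranged from 709 to 6667 in A/J (2059 as reported), 3476 to 13822 in C3H/HeJ (11187) and 8248 to 32152 in WSB/EiJ (19513). Array number and, for Cdkn1a, signal near background limit these values.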
